A study of Mus musculus with 11 samples.

Results

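Mitochondrial ribosomal proteins are the nuclear-encoded proteins of the ribosome inside mitochondria. The genes described here are every protein-coding gene whose mouse symbol is Mrpl or Mrps followed by a number and, in some cases, a letter. Membership was set by name, and the group was chosen with earlier results of these data known. There were 78 such genes, 49 Mrpl and 29 Mrps, among 53947 gene rows. All 78 passed the filter on low counts. RNA was sequenced from alphaTC1-6 cells, a glucagon-producing line of mouse pancreatic alpha cells. Mettl3 was knocked down in 4 libraries and Mettl14 in 4 others, and 3 libraries received a scramble control. All 11 libraries came from the same line, transfected as they were plated and collected 72 h after knockdown. The sources used here do not give the kind of knockdown reagent. Nothing in them says whether replicates are separate cultures, and the p-values therefore speak to the spread among these libraries, which could be technical alone.

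The mitochondrial ribosome, or mitoribosome, translates the few proteins encoded by mitochondrial DNA, all of them subunits of the respiratory chain and ATP synthase. Its RNA is made in the mitochondrion, whereas its proteins are made in the cytosol and imported. Some of them have homologues in bacterial ribosomes, and others are found in mitochondria alone. In alpha cells, as in other islet cells, mitochondrial respiration takes part in the control of hormone secretion. Mettl3 and Mettl14 form the complex that writes N6-methyladenosine on messenger RNA.

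Promoters of 4 of these genes are printed to show the motifs that the group is known for, in contrasting combinations. Each window runs from 250 bases before to 50 bases after the gene's start in RefSeq, build GRCm38.p6, and is written 5′ to 3′ along the gene's strand. Capitals mark exact matches to CCGGAAG, the core recognised by ETS factors such as GABP (Mrpl27, Mrpl58 and Mrps18a), to the NRF1 site searched (Mrpl39) or, as the second match in Mrps18a, to the YY1 site searched. Mrpl27 lies on the plus strand at chr11:94653541-94653840, Mrpl58 on the plus strand at chr11:115403502-115403801, Mrpl39 on the minus strand at chr16:84735195-84735494 and Mrps18a on the plus strand at chr17:46110754-46111053.
Mrpl27: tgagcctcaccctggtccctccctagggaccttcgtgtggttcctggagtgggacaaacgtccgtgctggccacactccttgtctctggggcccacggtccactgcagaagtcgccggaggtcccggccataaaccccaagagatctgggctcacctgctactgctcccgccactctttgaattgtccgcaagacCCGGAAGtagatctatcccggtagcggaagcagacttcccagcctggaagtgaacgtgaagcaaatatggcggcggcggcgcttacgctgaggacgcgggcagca
Mrpl58: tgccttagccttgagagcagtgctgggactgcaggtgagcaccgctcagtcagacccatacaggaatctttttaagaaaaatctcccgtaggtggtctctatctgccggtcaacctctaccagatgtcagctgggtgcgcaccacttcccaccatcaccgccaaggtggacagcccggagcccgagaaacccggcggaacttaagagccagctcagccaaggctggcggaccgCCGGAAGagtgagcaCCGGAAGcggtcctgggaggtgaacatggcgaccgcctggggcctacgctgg
Mrpl39: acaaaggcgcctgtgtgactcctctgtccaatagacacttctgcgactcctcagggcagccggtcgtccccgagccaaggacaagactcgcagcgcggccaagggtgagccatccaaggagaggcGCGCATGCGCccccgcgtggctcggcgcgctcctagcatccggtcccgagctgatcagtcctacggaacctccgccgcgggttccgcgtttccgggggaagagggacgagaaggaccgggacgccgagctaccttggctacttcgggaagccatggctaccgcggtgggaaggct
Mrps18a: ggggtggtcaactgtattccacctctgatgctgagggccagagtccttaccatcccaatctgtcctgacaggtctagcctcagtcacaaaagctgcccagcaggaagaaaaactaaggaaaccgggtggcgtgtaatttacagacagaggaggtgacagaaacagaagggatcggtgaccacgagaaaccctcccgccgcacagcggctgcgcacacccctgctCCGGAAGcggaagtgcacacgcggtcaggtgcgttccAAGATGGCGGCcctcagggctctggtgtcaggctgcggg

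Mrpl27 and Mrpl58 hold the ETS core, Mrpl39 the NRF1 site, and Mrps18a both the ETS core and the YY1 site, with no overlap among the matches shown. Of the 78 genes, 69 had a window in the RefSeq table. Both strands were searched, and a gene counted where any of its windows held a match. The ETS core stood in 26 of the 69 genes, or 37.7%. It stood in 20.4% of the 10233 tested genes with a window and in 9.93% of all 27025 genes with a window. The YY1 site stood in 5, or 7.25%, against 1.84% of tested genes and 0.755% of all genes with a window. The NRF1 site stood in 3, or 4.35%, against 2.35% and 1.07%. The ETS core was also held by 40.6% of the 64 cytosolic ribosomal protein genes with a window. There the NRF1 site was in 2 and the YY1 site in 0. Of 66 nuclear oxidative phosphorylation genes with a window, 24.2% held the ETS core. The YY1 site was in 4 of these 66, or 6.06%, and the NRF1 site in 5, or 7.58%. A match is a string of letters in the window and not evidence of binding.

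The knockdowns were visible in the targeted genes. Levels are given in CPM, reads scaled to a common library total. Mettl3 was at 5.06, 5.01, 5.98 and 5.30 CPM in Mettl3 KD libraries, 15.9, 14.2, 16.5 and 15 CPM in Mettl14 KD libraries and 14, 14.7 and 16.0 CPM in scramble libraries. Mettl14 was at 14.9, 14.2, 15.5 and 13.9 CPM in Mettl14 KD libraries, 29.1, 30.5, 29.7 and 28.1 CPM in Mettl3 KD libraries and 25.4, 23.5 and 26.8 CPM in scramble libraries. Library totals ran from 19576632 to 22406527 counts. Of the 9 alpha cell markers, Gcg was at 32258 to 33613 CPM in Mettl3 KD libraries, 36295 to 38342 CPM in Mettl14 KD libraries and 35769, 29359 and 36139 CPM in scramble libraries. Mettl3 KD thus lay below Mettl14 KD and below scramble replicates 1 and 3, and above scramble replicate 2. Ttr, which alpha cells also express, was at 1444 to 1542 CPM in Mettl3 KD libraries, 1536 to 1668 CPM in Mettl14 KD libraries and 1262, 1077 and 1176 CPM in scramble libraries, higher in both knockdowns without overlap. Gc was at 0 in every library. The 16 markers of other islet and exocrine cells summed to 66.5 to 69.9 CPM in Mettl3 KD libraries, 65 to 69.9 CPM in Mettl14 KD libraries and 70, 100 and 67.5 CPM in scramble libraries, highest in scramble replicate 2. Most of that sum was Nkx6-1, at 48.7 to 73.5 CPM over all libraries, while Ppy, Pdx1 and Prss2 were at 0 throughout. Whether these markers bear on the results below was not tested. Scramble replicate 2 stood apart. Its summed level of 18 lung and blood markers was 166 CPM, with all 18 at their highest there. The sum was 5.94 CPM in scramble replicate 1 and 4.96 CPM in scramble replicate 3. It was 5.91 to 9.15 CPM in Mettl3 KD libraries and 3.86 to 7.86 CPM in Mettl14 KD libraries. The counts at an adjusted p of 0.05 over the whole group are therefore also given without scramble replicate 2. Counts by subunit class, transcript length, promoter motif and neighbour are with all libraries. So are unadjusted and DESeq2 counts, counts of groups that do not overlap, and, unless stated, those of other lists. In bulk RNA, fewer cells of a type and less RNA per cell cannot be told apart.

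Together, mRNAs of the mitoribosome took a larger share of all counts after either knockdown. The 78 genes held 0.4151%, 0.4154%, 0.4118% and 0.4181% of counts in Mettl3 KD libraries, 0.3881%, 0.3903%, 0.3836% and 0.3891% in Mettl14 KD libraries, and 0.3632%, 0.3647% and 0.3647% in scramble libraries. The 3 groups did not overlap, with Mettl3 KD highest and scramble lowest, and on this measure scramble replicate 2 did not stand apart from the other scramble libraries. After TMM scaling, which sets libraries to one level on genes that vary little, the summed level was 4144 ± 33.4 CPM in Mettl3 KD (SD, n = 4), 3902 ± 35.4 CPM in Mettl14 KD (SD, n = 4) and 3632 ± 53.7 CPM in scramble (SD, n = 3). It was thus 14.1% higher in Mettl3 KD and 7.43% higher in Mettl14 KD than in scramble. Large-subunit names (Mrpl) were 13.1% higher in sum in Mettl3 KD and 6.65% higher in Mettl14 KD, and small-subunit names (Mrps) 15.9% higher in Mettl3 KD and 8.88% higher in Mettl14 KD.

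**Figure D1:**
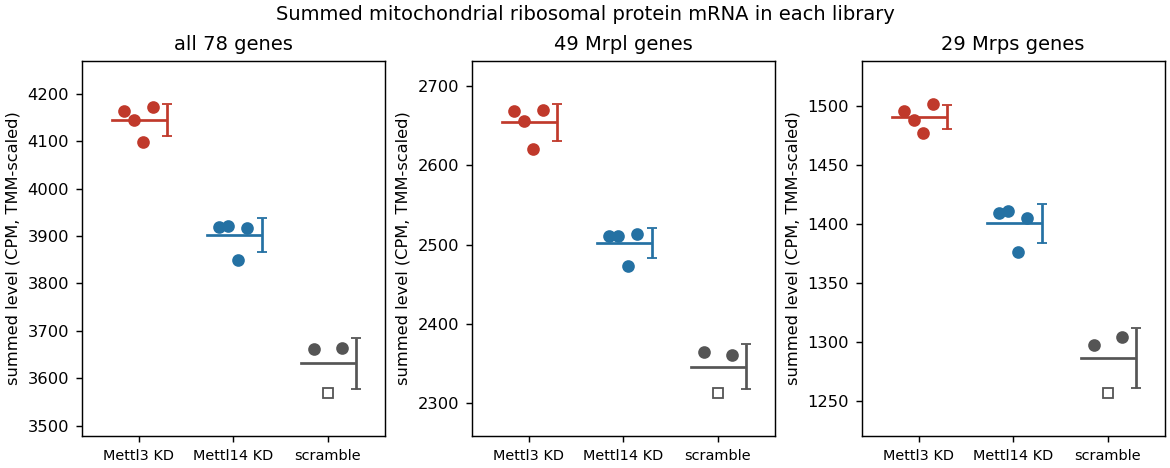
Summed TMM-scaled CPM of all 78 genes, of the 49 Mrpl genes and of the 29 Mrps genes, on axes that do not start at 0, with 1 point per library, the group mean as a line and 1 SD as a bar; the open square is scramble replicate 2. In each panel the Mettl3 KD libraries lie above the Mettl14 KD libraries, which lie above the scramble libraries.

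In Mettl3 KD against scramble, 50 of the 78 genes rose and 0 fell by edgeR's quasi-likelihood test at an adjusted p of 0.05. Among all 14133 genes tested, 15.5% rose and 15.8% fell. The median log2 fold change was 0.18 over the 78 genes and -0.00 over all genes. At an unadjusted p under 0.05, 59 were higher and 0 lower (20.4% and 20.5% of all genes). DESeq2 called 46 higher and 0 lower (14.2% and 12.6% of the genes it gave an adjusted p). The groups did not overlap, with Mettl3 KD higher, for 55 genes (17.5% of all genes tested), and with Mettl3 KD lower for 0 (17.9%). The changes were small: 1 gene, Mrpl23, passed 1.5-fold. When scramble replicate 2 was left out, 48 rose and 1 fell (15.3% and 15.1% of all genes), with a median of 0.16. The gene that fell was Mrpl49. In that fit 43 of the 50 rose again, and 39 of the 50 were called whichever of the 11 libraries was left out.

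In Mettl14 KD against the same scramble libraries, 29 of the 78 genes rose and 0 fell, where 10.1% of all genes rose and 10.8% fell. The median log2 fold change was 0.12, against 0.00 over all genes. Unadjusted p-values under 0.05 were found for 39 higher and 0 lower (16.6% and 16.9% of all genes), and DESeq2 called 24 higher and 0 lower (9.34% and 8.94%). The groups did not overlap, with Mettl14 KD higher, for 30 genes (14.4% of all genes tested), and with Mettl14 KD lower for 0 (14.6%). With scramble replicate 2 left out, 25 rose and Mrpl49 fell (9.34% and 10.1% of all genes), with a median of 0.11. Of the 29 calls, 24 were made again in that fit, and 15 held whichever library was left out. As both comparisons use the same scramble libraries, they are not independent.

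**Figure D2:**
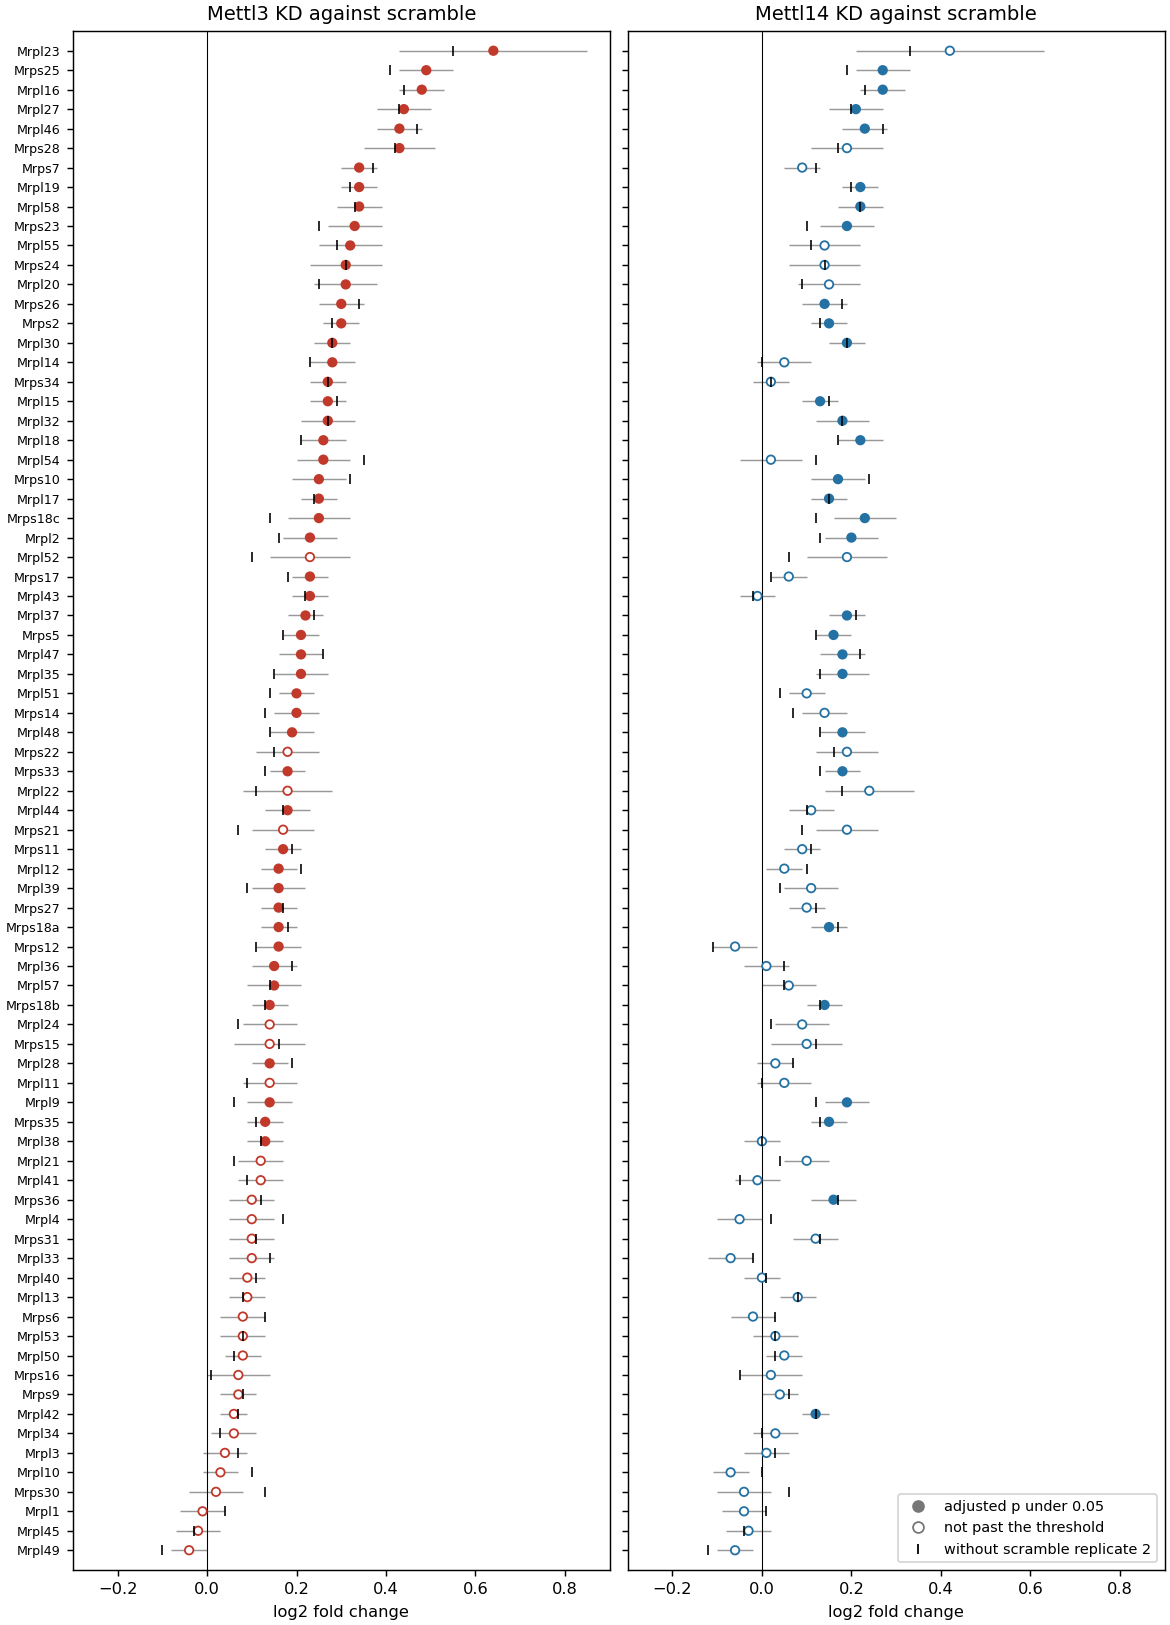
Log2 fold changes of the 78 genes in Mettl3 KD (left) and Mettl14 KD (right) against scramble, ordered by the left panel, with SE bars; filled points passed an adjusted p of 0.05, and black ticks give the value without scramble replicate 2. In the left panel 75 of 78 points lie above 0, and in the right panel 66.

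The knockdowns also differed from each other. In Mettl3 KD against Mettl14 KD, a comparison without scramble libraries, 17 of the 78 genes were higher and 0 lower, where 3.66% of all genes were higher and 4.44% lower. The median log2 difference was 0.08, against 0.00 over all genes, and it was positive for 68 of the 78. With an unadjusted p under 0.05, 34 were higher and 0 lower (10.8% and 11.2% of all genes), and DESeq2 called 15 higher and 0 lower (3.65% and 4.4%). The groups did not overlap, with Mettl3 KD higher, for 25 genes (8.43% of all genes tested), and with Mettl3 KD lower for 0 (9.21%). The scramble libraries enter through the shared estimate of spread. Leaving out scramble replicate 2 gave 28 higher and 0 lower (7.22% and 7.62% of all genes), the 17 among them. Without Mettl3 KD replicate 4, 11 were higher.

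Among the 30 large-subunit proteins with bacterial homologues, 19 rose in Mettl3 KD (15.5% of all genes tested) and 12 in Mettl14 KD (10.1%). The median log2 fold changes were 0.19 in Mettl3 KD and 0.13 in Mettl14 KD. Mrpl16 had the smallest adjusted p of the 78 genes in Mettl3 KD. It was at 39.8, 39.8, 42.0 and 43.5 CPM in Mettl3 KD, 36.5, 38.2, 34.1 and 33.7 in Mettl14 KD and 30.3, 27.8 and 30.5 CPM in scramble. The 3 groups did not overlap. Its log2 fold change was 0.48 ± 0.05 (SE, adjusted p = 1.07e-06) in Mettl3 KD and 0.27 ± 0.05 (adjusted p = 0.00131) in Mettl14 KD. Mettl3 KD exceeded Mettl14 KD by 0.21 ± 0.05 (adjusted p = 0.00864).

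Mrpl27, whose bacterial homologue sits close to the peptidyl transferase centre, had the same order of groups. It was at 35.9, 32.0, 31.5 and 35.3 CPM in Mettl3 KD, 27.1, 30.5, 27.6 and 29.7 in Mettl14 KD and 26.0, 24.7 and 23.8 CPM in scramble, again without overlap. The log2 fold change was 0.44 ± 0.06 in Mettl3 KD (adjusted p = 1.03e-05) and 0.21 ± 0.06 in Mettl14 KD (adjusted p = 0.0173). The second call was lost without Mettl14 KD replicate 2 or without scramble replicate 3, where the leave-one-out values ran from 0.18 to 0.24. Mettl3 KD exceeded Mettl14 KD by 0.23 ± 0.05 (adjusted p = 0.00926). Its promoter, with an ETS core, is printed above. Eme1, which starts beside it on the opposite strand, was at a log2 fold change of 0.04 ± 0.08 in Mettl3 KD (adjusted p = 0.766).

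Mrpl19 was higher in both knockdowns. It was at 64.1 to 69.0 CPM in Mettl3 KD, 59.7 to 64.0 CPM in Mettl14 KD and 51.1 to 55.7 CPM in scramble, so that neither knockdown overlapped with scramble. Its log2 fold change was 0.34 ± 0.04 in Mettl3 KD (adjusted p = 3.54e-06) and 0.22 ± 0.04 in Mettl14 KD (adjusted p = 0.000761). Mrpl12, which recruits translation factors to the ribosome, was at 148, 141, 134 and 139 CPM in Mettl3 KD, 129, 131, 133 and 129 in Mettl14 KD and 122, 135 and 122 CPM in scramble. It rose in Mettl3 KD by 0.16 ± 0.04 (adjusted p = 0.00496), with the value of 135 CPM in scramble replicate 2 overlapping the knockdown. In Mettl14 KD its log2 fold change was 0.05 ± 0.04 (adjusted p = 0.423), and without scramble replicate 2 0.10 (adjusted p = 0.0446).

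Mrpl23 had the largest fold change in Mettl3 KD and also the largest SE among the members. It was at 9, 7.69, 9.11 and 10.2 CPM in Mettl3 KD, 10, 6.38, 6.03 and 8.50 in Mettl14 KD and 7.39, 4.95 and 4.94 CPM in scramble. Mettl3 KD lay above scramble without overlap, and Mettl14 KD overlapped both. The log2 fold change in Mettl3 KD was 0.64 ± 0.21 (adjusted p = 0.0373). It missed the threshold without scramble replicate 2 (0.55, adjusted p = 0.150), as it did without scramble replicate 3 or Mettl3 KD replicates 1, 3 or 4, with leave-one-out values from 0.54 to 0.86. The pseudogene Mrpl23-ps1 held 522 to 729 counts per library, and near-identical reads can be shared out between such copies by estimation, so the level of Mrpl23 itself is uncertain.

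Mrpl9 and Mrpl2 lost calls when scramble replicate 2 was left out. Mrpl9 was at 64.5 to 65.8 CPM in Mettl3 KD, 63.6 to 71.8 CPM in Mettl14 KD and 61.5, 52.6 and 63.1 CPM in scramble, with scramble replicate 2 lowest. It rose by 0.14 ± 0.05 in Mettl3 KD (adjusted p = 0.0496), while the value without that library was 0.06 (adjusted p = 0.274). The Mettl3 KD call was also lost without any one Mettl3 KD library or without Mettl14 KD replicate 1 or 4, with values up to 0.20. In Mettl14 KD it rose by 0.19 ± 0.05 (adjusted p = 0.0124), and by 0.12 (adjusted p = 0.0433) without it. Mrpl2 rose by 0.23 ± 0.06 in Mettl3 KD (adjusted p = 0.0069) and by 0.20 ± 0.06 in Mettl14 KD (adjusted p = 0.0247), the second at 0.13 (adjusted p = 0.0718) without scramble replicate 2. That call was also lost without Mettl14 KD replicate 2, with leave-one-out values from 0.13 to 0.24.

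Of the 21 large-subunit proteins specific to mitochondria, 12 rose in Mettl3 KD (15.5% of all genes tested) and 6 in Mettl14 KD (10.1%). The median log2 fold changes were 0.16 in Mettl3 KD and 0.06 in Mettl14 KD. Mrpl46 was at 25, 25.3, 24.8 and 25.7 CPM in Mettl3 KD, 21.6, 20.7, 22.5 and 22.4 in Mettl14 KD and 18.5, 19.7 and 17.8 CPM in scramble. The groups did not overlap, and the log2 differences were 0.43 ± 0.05 in Mettl3 KD (adjusted p = 3.5e-06), 0.23 ± 0.05 in Mettl14 KD (adjusted p = 0.00499) and 0.21 ± 0.05 between the knockdowns (adjusted p = 0.00981). Mrpl46 starts beside Mrps11, a small-subunit gene on the opposite strand, and their 5′ ends overlap in the annotation. Mrps11 rose in Mettl3 KD by 0.17 ± 0.04 (adjusted p = 0.00614). The sources used here do not say whether counting used strand, and without it reads from the overlap cannot be told apart.

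Mrpl58, also called ICT1, is a peptidyl-tRNA hydrolase built into the large subunit that can free stalled ribosomes. It was at 46.9, 50.5, 44.8 and 48.0 CPM in Mettl3 KD, 42.0, 44.4, 43.0 and 45.7 in Mettl14 KD and 36.1, 37.1 and 39.3 CPM in scramble. Both knockdowns lay above scramble, Mettl3 KD by 0.34 ± 0.05 (adjusted p = 1.67e-05) and Mettl14 KD by 0.22 ± 0.05 (adjusted p = 0.00234), and they overlapped each other. Mrpl44, a member with a ribonuclease III fold, was at 36.0, 40.1, 39.7 and 38.8 CPM in Mettl3 KD, 37.6, 33.6, 37.4 and 37.9 in Mettl14 KD and 32.7, 33.6 and 35.8 CPM in scramble. It rose in Mettl3 KD by 0.18 ± 0.05 (adjusted p = 0.0112), a call lost without scramble replicate 1 (leave-one-out values 0.15 to 0.23), and was at 0.11 ± 0.05 in Mettl14 KD (adjusted p = 0.166).

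Mrpl43 and Mrpl54 were higher in Mettl3 KD than in both other groups. Mrpl43 was at 56.9, 52.3, 57.3 and 52.7 CPM in Mettl3 KD, 46.9, 47.5, 46.5 and 44.9 in Mettl14 KD and 48.7, 45.6 and 45.7 CPM in scramble, so Mettl3 KD stood above both other groups, which overlapped. The log2 fold change was 0.23 ± 0.04 in Mettl3 KD (adjusted p = 0.000391), -0.01 ± 0.04 in Mettl14 KD (adjusted p = 0.945) and 0.24 ± 0.04 for Mettl3 KD against Mettl14 KD (adjusted p = 0.000719). Twnk, the mitochondrial DNA helicase that starts beside Mrpl43 on the opposite strand, was at 0.02 ± 0.04 in Mettl3 KD (adjusted p = 0.726). Mrpl54 was 0.26 ± 0.06 higher in Mettl3 KD (adjusted p = 0.00369) and at 0.02 ± 0.07 in Mettl14 KD (adjusted p = 0.839). The difference between knockdowns was 0.24 ± 0.06 (adjusted p = 0.0149) and missed the threshold without Mettl14 KD replicate 1, Mettl14 KD replicate 4 or Mettl3 KD replicate 4, where leave-one-out values ran from 0.20 to 0.26.

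Mrpl39, Mrpl49 and Mrps30 depended on scramble replicate 2 in different directions. Mrpl39 was at 49.2, 53.1, 49.2 and 51.6 CPM in Mettl3 KD and 48.7, 40.7 and 46.9 CPM in scramble, and its rise of 0.16 ± 0.06 (adjusted p = 0.0373) came to 0.09 (adjusted p = 0.173) without scramble replicate 2. The call was also lost without Mettl3 KD replicate 2 or replicate 4, with leave-one-out values from 0.09 to 0.21. Mrps30, a large-subunit protein in spite of its name, was at 40.3, 42.4, 41.8 and 39.3 CPM in Mettl3 KD and 37.0, 46.2 and 38.1 CPM in scramble. It was at 0.02 ± 0.06 with all libraries (adjusted p = 0.814) and rose by 0.13 (adjusted p = 0.0396) without scramble replicate 2. Mrpl49 was at 65.1, 65.7, 63.0 and 63.9 CPM in Mettl3 KD, 64.3, 63.7, 62.0 and 65.1 in Mettl14 KD and 67.7, 60.6 and 70.6 CPM in scramble. With all libraries its log2 fold change was -0.04 ± 0.04 in Mettl3 KD (adjusted p = 0.491) and -0.06 ± 0.04 in Mettl14 KD (adjusted p = 0.382). When scramble replicate 2 was left out these came to -0.10 in Mettl3 KD (adjusted p = 0.0425) and -0.12 in Mettl14 KD (adjusted p = 0.0299).

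**Figure D3:**
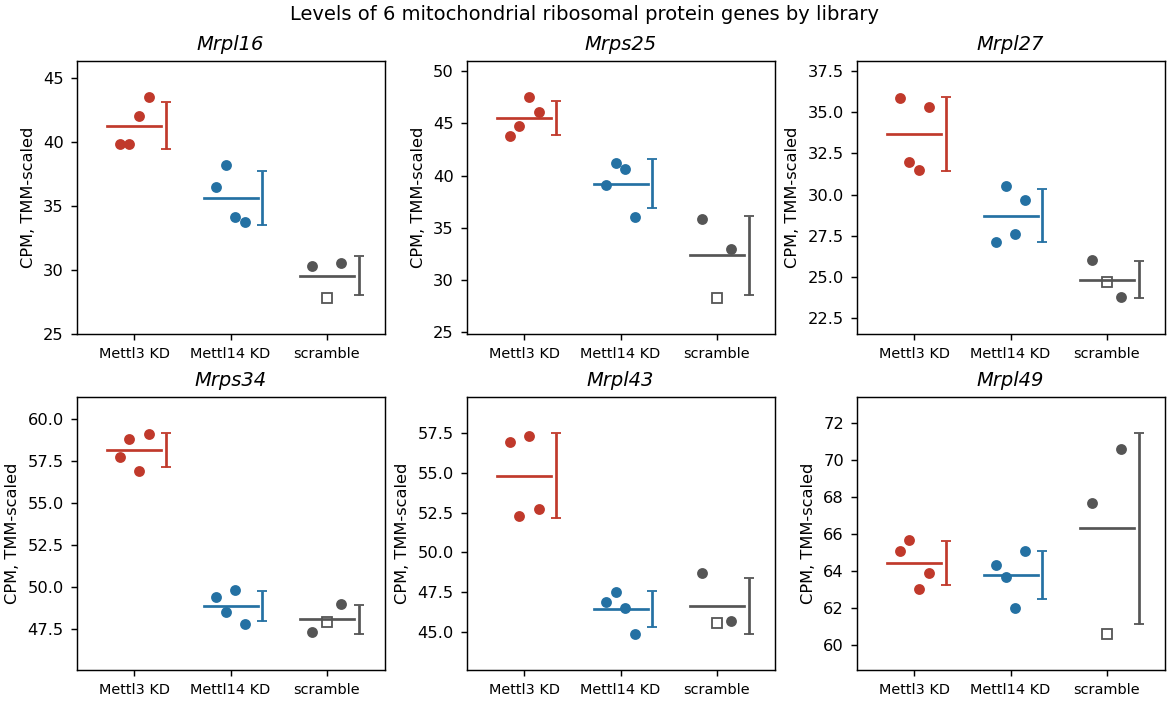
TMM-scaled CPM of 6 genes in each library, on axes that do not start at 0, with the group mean as a line, 1 SD as a bar and scramble replicate 2 as an open square. Mrpl16, Mrps25 and Mrpl27 step down across the 3 groups, Mrps34 and Mrpl43 stand out in Mettl3 KD, and for Mrpl49 scramble replicate 2 (60.6 CPM) lies below both other scramble libraries (67.7 and 70.6 CPM).

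Of the 16 small-subunit proteins with bacterial homologues, 11 rose in Mettl3 KD (15.5% of all genes tested) and 4 in Mettl14 KD (10.1%). Over the 16, the median log2 fold change was 0.20 in Mettl3 KD and 0.12 in Mettl14 KD. Mrps7, which binds the small ribosomal RNA early in assembly in bacteria, was at 75.8, 77.3, 72.0 and 78.8 CPM in Mettl3 KD, 63.0, 63.7, 67.5 and 61.6 in Mettl14 KD and 57.0, 62.7 and 60.8 CPM in scramble. Mettl3 KD was above both other groups, which overlapped. It was 0.34 ± 0.04 above scramble (adjusted p = 6.09e-06) and 0.25 ± 0.04 above Mettl14 KD (adjusted p = 0.000401), and Mettl14 KD was at 0.09 ± 0.04 against scramble (adjusted p = 0.164).

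Mrps12, a protein of the decoding centre, was at 42.6, 39.5, 39.8 and 40.5 CPM in Mettl3 KD, 36.9, 35.7, 33 and 33.9 in Mettl14 KD and 38.7, 33.8 and 36.4 CPM in scramble. The knockdowns lay on either side of the scramble mean. Mettl3 KD exceeded Mettl14 KD by 0.22 ± 0.05 (adjusted p = 0.00621) and scramble by 0.16 ± 0.05 (adjusted p = 0.0222), the second at 0.11 (adjusted p = 0.0834) without scramble replicate 2 and also lost without Mettl3 KD replicate 1 (leave-one-out values 0.11 to 0.21). Mettl14 KD was at -0.06 ± 0.05 against scramble (adjusted p = 0.469). Mrps28 was at 19.3, 17.8, 15.7 and 17.1 CPM in Mettl3 KD and 13, 12.6 and 13.2 CPM in scramble, higher by 0.43 ± 0.08 (adjusted p = 0.000322), with 12.7 to 15.9 CPM in Mettl14 KD. Its difference between knockdowns, 0.24 ± 0.07 (adjusted p = 0.0402), was lost in 5 of the 11 fits that left out 1 library, namely Mettl14 KD replicates 3 and 4 and Mettl3 KD replicates 1, 2 and 4, with values from 0.18 to 0.29.

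The 3 Mrps18 genes encode related proteins that sit in different places: Mrps18a in the large subunit, Mrps18b and Mrps18c in the small one. Mrps18a rose by 0.16 ± 0.04 in Mettl3 KD (adjusted p = 0.00794) and by 0.15 ± 0.04 in Mettl14 KD (adjusted p = 0.0161). Mrps18b rose by 0.14 ± 0.04 in Mettl3 KD (adjusted p = 0.00881) and by as much in Mettl14 KD (adjusted p = 0.0123). The Mettl14 KD call for Mrps18a was lost without scramble replicate 3 (leave-one-out values 0.13 to 0.17), and both calls for Mrps18b without scramble replicate 1 (0.11 to 0.18 in Mettl3 KD and 0.12 to 0.18 in Mettl14 KD). Mrps18c was at 31.0, 33.5, 31.6 and 32.6 CPM in Mettl3 KD, 32.9, 32.0, 30.7 and 31.5 in Mettl14 KD and 30.4, 22.8 and 28 CPM in scramble, with scramble replicate 2 lowest. It rose by 0.25 ± 0.07 in Mettl3 KD (adjusted p = 0.0108), and by 0.14 (adjusted p = 0.0429) without that library. In Mettl14 KD it rose by 0.23 ± 0.07 (adjusted p = 0.0249), and the value without that library was 0.12 (adjusted p = 0.109). The Mettl14 KD call was also lost without Mettl14 KD replicate 1 or 2, with leave-one-out values up to 0.32. The differences between the knockdowns were 0.01 ± 0.04 for Mrps18a, -0.00 ± 0.03 for Mrps18b and 0.02 ± 0.06 for Mrps18c (adjusted p = 0.954, 0.983 and 0.915).

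Among the 10 small-subunit proteins specific to mitochondria, 8 rose in Mettl3 KD (15.5% of all genes tested) and 6 in Mettl14 KD (10.1%). The median log2 fold changes were 0.18 in Mettl3 KD and 0.15 in Mettl14 KD. Mrps25 was at 43.8, 44.7, 47.5 and 46.1 CPM in Mettl3 KD, 39.1, 41.2, 40.6 and 36.0 in Mettl14 KD and 35.8, 28.3 and 33 CPM in scramble. The 3 groups did not overlap. The log2 fold change was 0.49 ± 0.06 in Mettl3 KD (adjusted p = 1.46e-05) and 0.27 ± 0.06 in Mettl14 KD (adjusted p = 0.00574), and without scramble replicate 2 it was 0.41 in Mettl3 KD (adjusted p = 9.4e-08) and 0.19 in Mettl14 KD (adjusted p = 0.00916). The difference between knockdowns, 0.22 ± 0.06 (adjusted p = 0.0251), was lost in 5 of the 11 fits that left out 1 library, Mettl14 KD replicates 1 and 4 and Mettl3 KD replicates 2, 3 and 4, with values from 0.18 to 0.24.

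Mrps34, needed in humans for a stable small subunit, gave the smallest adjusted p of the 78 genes between the knockdowns. It was at 57.7, 58.8, 56.9 and 59.1 CPM in Mettl3 KD, 49.4, 48.5, 49.8 and 47.8 in Mettl14 KD and 47.3, 47.9 and 49 CPM in scramble. Mettl14 KD overlapped scramble and Mettl3 KD lay clear of both. Mettl3 KD was 0.27 ± 0.04 above scramble (adjusted p = 9.12e-06) and 0.25 ± 0.03 above Mettl14 KD (adjusted p = 7.02e-05), while Mettl14 KD was at 0.02 ± 0.04 (adjusted p = 0.686). Mrps23 rose by 0.33 ± 0.06 in Mettl3 KD (adjusted p = 0.00109) and by 0.19 ± 0.06 in Mettl14 KD (adjusted p = 0.048). The Mettl14 KD call was lost without Mettl14 KD replicate 1, 2 or 4, Mettl3 KD replicate 1, 3 or 4, or scramble replicate 2, with leave-one-out values from 0.10 to 0.24. The value without scramble replicate 2 was 0.10 (adjusted p = 0.0972).

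Mrps36 carries the name but is now known as a subunit of the 2-oxoglutarate dehydrogenase complex. It was at 36.1, 34.5, 35.1 and 36.0 CPM in Mettl3 KD, 35.7, 40.6, 34.0 and 37.4 in Mettl14 KD and 34.0, 33.8 and 31.3 CPM in scramble. Its log2 fold change was 0.10 ± 0.05 in Mettl3 KD (adjusted p = 0.172) and 0.16 ± 0.05 in Mettl14 KD (adjusted p = 0.0423). The call in Mettl14 KD was lost without Mettl14 KD replicate 2 or 4, any one Mettl3 KD library or scramble replicate 3, with leave-one-out values from 0.11 to 0.20.

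Levels of the members, per kilobase of the median annotated transcript, spanned 27.2-fold in scramble around a median of 34.3 CPM per kb. The highest 5 in scramble were Mrpl42, Mrpl20, Mrpl30, Mrps33 and Mrps21. Mrpl42 was at 151 ± 1.81 in Mettl3 KD, 156 ± 3.37 in Mettl14 KD and 144 ± 2.72 CPM per kb in scramble (SD). Mrpl20 was at 143 ± 10 in Mettl3 KD, 129 ± 7.50 in Mettl14 KD and 116 ± 10.1 CPM per kb in scramble. Mrpl30 was at 138 ± 7.75 in Mettl3 KD, 129 ± 4.19 in Mettl14 KD and 113 ± 4.29 CPM per kb in scramble. In scramble, Mrpl20 and Mrpl30 did not differ beyond their spread, nor did Mrps33 at 109 ± 6.74 and Mrps21 at 99.2 ± 14 CPM per kb, nor Mrps21 and the next gene, Mrpl12, at 96 ± 5.68 CPM per kb. Mrpl42 had a log2 fold change of 0.06 ± 0.03 (adjusted p = 0.14) in Mettl3 KD and of 0.12 ± 0.03 in Mettl14 KD (adjusted p = 0.0136).

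The lowest 5 in scramble were Mrpl32, Mrps25, Mrpl35, Mrpl57 and Mrpl47. Mrpl32 was at 6.40 ± 0.418 in Mettl3 KD, 6.01 ± 0.270 in Mettl14 KD and 5.31 ± 0.0408 CPM per kb in scramble, and Mrps25 at 7.50 ± 0.268 in Mettl3 KD, 6.46 ± 0.378 in Mettl14 KD and 5.33 ± 0.621 CPM per kb in scramble. In scramble these 2 did not differ beyond their spread, nor did Mrpl47 at 7.33 ± 0.412 and the next gene up, Mrps16, at 7.45 ± 0.708 CPM per kb. The 5 are annotated with long transcripts, up to 6073 bases for Mrps25, and a shorter form in use would raise the level per kb. All 5 rose in Mettl3 KD, by 0.15 to 0.49. Mrpl35 rose by 0.21 ± 0.06 (adjusted p = 0.015), a call lost without scramble replicate 2 (0.15, adjusted p = 0.0594), scramble replicate 3 or Mettl3 KD replicate 1, with leave-one-out values up to 0.30. Mrpl57 rose by 0.15 ± 0.06 (adjusted p = 0.042), a call lost without any one scramble library or without Mettl3 KD replicate 1, 2 or 3, with leave-one-out values from 0.12 to 0.18. With the longest transcript in place of the median one, 4 of the highest 5 and all of the lowest 5 stayed in place.

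The scramble libraries differed with transcript length. The scramble replicate 2 median log2 difference from the other scramble libraries was -0.09 over tested genes under 1000 bases and -0.07 over the 30 members under 1000 bases. For scramble replicate 1 these values were 0.07 over genes and 0.06 over members. Scramble replicate 2 was the lowest scramble library for 40 of the 78 members and the highest for 24. Of members under 1000 bases, 18 of 30 rose in Mettl3 KD and 9 of 30 in Mettl14 KD. Of the longer ones, 32 of 48 rose in Mettl3 KD and 20 of 48 in Mettl14 KD. The shares over all genes tested were 15.5% in Mettl3 KD and 10.1% in Mettl14 KD. After a correction that removes each library's trend with length, 42 members rose in Mettl3 KD (15.5% of all genes) and 23 in Mettl14 KD (10.5%). In the same fit 16 were higher in Mettl3 KD than in Mettl14 KD (3.76%), and 0 were lower in each comparison (15.5%, 10.9% and 4.31%).

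Changes were set beside the promoter motifs. In Mettl3 KD, 16 of the 26 members with an ETS core rose, with a median log2 fold change of 0.18, and 27 of the 43 without one, with a median of 0.17. In Mettl14 KD, 11 of 26 with the core and 15 of 43 without it rose. Over all genes tested, 15.5% rose in Mettl3 KD and 10.1% in Mettl14 KD. Of the 5 members with the YY1 site, 5 rose in Mettl3 KD and 3 in Mettl14 KD, and of the 64 without it, 38 rose in Mettl3 KD and 23 in Mettl14 KD. Of the 3 members with the NRF1 site, 3 rose in Mettl3 KD and 2 in Mettl14 KD, and of the 66 without it, 40 rose in Mettl3 KD and 24 in Mettl14 KD. The median log2 fold change in Mettl3 KD was 0.17 with the YY1 site, 0.16 with the NRF1 site and 0.18 both for members without the YY1 site and for those without the NRF1 site. A protein-coding gene starting within 1000 bases on the opposite strand was found for 33 of 78 members, or 42.3%, against 17% of the 12244 protein-coding genes tested. Tested partners that are not themselves members numbered 29. Their median log2 fold change was 0.06 in Mettl3 KD and 0.03 in Mettl14 KD. In Mettl3 KD, 8 of these 29 partners rose and 1 fell, beside 15.5% and 15.8% of all genes tested. For Mettl14 KD the counts were 4 and 1 of 29, beside 10.1% and 10.8%. Helq, the partner of Mrps18c, rose by 0.22 ± 0.04 in Mettl3 KD (adjusted p = 0.00045) and 0.13 ± 0.04 in Mettl14 KD (adjusted p = 0.0346). Tmem63b, the partner of Mrpl14, was the 1 that fell. It was at -0.15 ± 0.04 in Mettl3 KD (adjusted p = 0.00472) and -0.16 ± 0.04 in Mettl14 KD (adjusted p = 0.00533). Mrpl14 itself rose in Mettl3 KD by 0.28 ± 0.05 (adjusted p = 0.000526).

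Proteins that build or serve the mitoribosome under other names were followed on lists made for this purpose. Of 25 assembly factors, 9 rose in Mettl3 KD and 5 in Mettl14 KD, with 0 lower in either. The medians were 0.14 in Mettl3 KD and 0.08 in Mettl14 KD. Among all genes tested, 15.5% rose and 15.8% fell in Mettl3 KD, and 10.1% rose and 10.8% fell in Mettl14 KD. Leaving out scramble replicate 2, 10 rose in Mettl3 KD and Mrm1 fell by 0.22, and 5 rose in Mettl14 KD. In that fit 15.3% of all genes rose and 15.1% fell in Mettl3 KD, and 9.34% rose and 10.1% fell in Mettl14 KD. Dhx30, an RNA helicase of mitochondrial RNA granules, was at 137 ± 2.86 CPM in Mettl3 KD, 128 ± 3.51 CPM in Mettl14 KD and 116 ± 3.69 CPM in scramble (SD), higher by 0.24 ± 0.03 in Mettl3 KD (adjusted p = 1.72e-05) and 0.14 ± 0.03 in Mettl14 KD (adjusted p = 0.00584). Mrm3, which methylates the large ribosomal RNA, was higher by 0.40 ± 0.07 in Mettl3 KD (adjusted p = 0.000245) and 0.22 ± 0.07 in Mettl14 KD (adjusted p = 0.0393). The Mettl14 KD value was at adjusted p = 0.0675 without scramble replicate 2.

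Of 16 translation and mRNA-handling factors, 11 rose in Mettl3 KD (15.5% of all genes) and 4 in Mettl14 KD (10.1%), with 0 lower (15.8% and 10.8%). The counts higher were 5 in Mettl3 KD (15.3% of all genes) and 4 in Mettl14 KD (9.34%) without scramble replicate 2. Lrpprc, which stabilises mitochondrial mRNAs together with Slirp, was at 292 ± 2.75 CPM in Mettl3 KD, 292 ± 4.37 CPM in Mettl14 KD and 254 ± 3.29 CPM in scramble, higher by 0.20 ± 0.03 in each (adjusted p = 2.73e-05 and 4.67e-05). Slirp was higher by 0.45 ± 0.09 in Mettl3 KD (adjusted p = 0.00169) and 0.36 ± 0.09 in Mettl14 KD (adjusted p = 0.0112). Gfm1, the mitochondrial elongation factor G, was at 198 ± 3.89 CPM in Mettl3 KD, 210 ± 1.79 CPM in Mettl14 KD and 177 ± 2.11 CPM in scramble, higher by 0.16 ± 0.03 in Mettl3 KD (adjusted p = 0.000338) and 0.24 ± 0.03 in Mettl14 KD (adjusted p = 5.51e-06). Gfm2, which helps recycle ribosomes, was the fourth called in Mettl14 KD, at 0.15 (adjusted p = 0.00555). Of 5 mitoribosomal proteins named otherwise, Ptcd3 rose in Mettl3 KD, by 0.15 ± 0.03 (adjusted p = 0.00119), and 0 were called in Mettl14 KD.

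Regulators of nuclear genes for mitochondria did not move one way. Of 10, Esrra and Gabpb1 rose and Myc, Yy1 and Ppargc1a fell in Mettl3 KD. In Mettl14 KD, Esrra and Ppargc1a rose and Yy1 and Myc fell. Among all genes tested, 15.5% rose and 15.8% fell in Mettl3 KD, and 10.1% rose and 10.8% fell in Mettl14 KD. Ppargc1a, the coactivator PGC-1alpha, was at 137, 137, 148 and 140 CPM in Mettl3 KD, 166, 171, 163 and 164 in Mettl14 KD and 161, 148 and 146 CPM in scramble. It was lower in Mettl3 KD than in Mettl14 KD without overlap, at -0.24 ± 0.03 (adjusted p = 0.00018). Whether the levels of these regulators bear on the mitoribosomal mRNAs was not tested. Gabpa, whose product binds the ETS core, was at a log2 fold change of -0.07 ± 0.04 in Mettl3 KD (adjusted p = 0.248) and -0.08 ± 0.04 in Mettl14 KD (adjusted p = 0.222). Yy1 was at 138 ± 0.516 CPM in Mettl3 KD, 140 ± 2.29 CPM in Mettl14 KD and 152 ± 3.48 CPM in scramble, a log2 fold change of -0.15 ± 0.03 in Mettl3 KD (adjusted p = 0.000925) and -0.13 ± 0.03 in Mettl14 KD (adjusted p = 0.00523). The Myc call in Mettl14 KD, -0.73 ± 0.23 (adjusted p = 0.0311), was at adjusted p = 0.0994 without scramble replicate 2. Of 7 genes for transcription of mitochondrial DNA, Tefm and Tfam rose in Mettl3 KD, Tefm by 0.45 ± 0.10 (adjusted p = 0.0012) and Tfam by 0.11 ± 0.04 (adjusted p = 0.0439), and Tfam rose in Mettl14 KD by 0.14 ± 0.04 (adjusted p = 0.0124). Tfam was at 0.07 in Mettl3 KD (adjusted p = 0.15) without scramble replicate 2.

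Cytosolic ribosomal proteins and respiratory chain subunits give the nearest comparison. Among all genes tested, 15.5% rose and 15.8% fell in Mettl3 KD, and 10.1% rose and 10.8% fell in Mettl14 KD. Without scramble replicate 2 these shares were 15.3% and 15.1% in Mettl3 KD, and 9.34% and 10.1% in Mettl14 KD. Of 81 cytosolic ribosomal protein genes tested, 52 rose in Mettl3 KD, with a median log2 fold change of 0.21, and 24 in Mettl14 KD, where the median was 0.16, and 0 fell. Without scramble replicate 2 the count was 50 in Mettl3 KD (median 0.14) and 24 in Mettl14 KD (median 0.08). The medians of the mitochondrial ribosomal proteins were 0.18 with it and 0.16 without it in Mettl3 KD, and 0.12 and 0.11 in Mettl14 KD. Of 78 nuclear genes for subunits of oxidative phosphorylation, 43 rose and Cox6a1 and Ndufv3 fell in Mettl3 KD, and 44 rose and Ndufv3 fell in Mettl14 KD, with a median of 0.20 in each. Leaving it out gave 49 of 79 higher in Mettl3 KD (median 0.13) and 48 of 79 in Mettl14 KD (median 0.14).

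Between the knockdowns the lists had different values. In Mettl3 KD against Mettl14 KD the median log2 difference was 0.08 for mitochondrial ribosomal proteins, with 17 of 78 higher, 0.07 for cytosolic ribosomal proteins, with 4 of 81 higher (Rpl22l1, Rpl8, Rps16 and Rps20), and 0.00 for oxidative phosphorylation subunits, with 1 higher (Uqcrfs1) and 2 lower (Cox6a1 and Ndufa10). The counts higher for cytosolic ribosomal proteins and oxidative phosphorylation subunits were thus near or under the share of all genes. With scramble replicate 2 left out, 28 of 78 mitochondrial and 21 of 81 cytosolic ribosomal protein genes were higher. Lower were 0 of the first and 1 of the second (Rpl21). Of the oxidative phosphorylation genes, 2 were higher and 8 lower. In that fit 7.22% of all genes were higher and 7.62% lower. These are counts and medians beside each other, and no test between the lists was made. Of the 13 mRNAs encoded in mitochondrial DNA, the templates of the mitoribosome, mt-Nd4l alone was called, in both knockdowns. It was at 1022 ± 48.9 CPM in Mettl3 KD, 1132 ± 190 CPM in Mettl14 KD and 761 ± 77.2 CPM in scramble with adjusted p = 0.0365 in Mettl3 KD and 0.0153 in Mettl14 KD. When scramble replicate 2 was left out the adjusted p was 0.117 in Mettl3 KD and 0.0524 in Mettl14 KD. The median over the 13 was -0.03 in Mettl3 KD and 0.02 in Mettl14 KD.

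**Figure D4:**
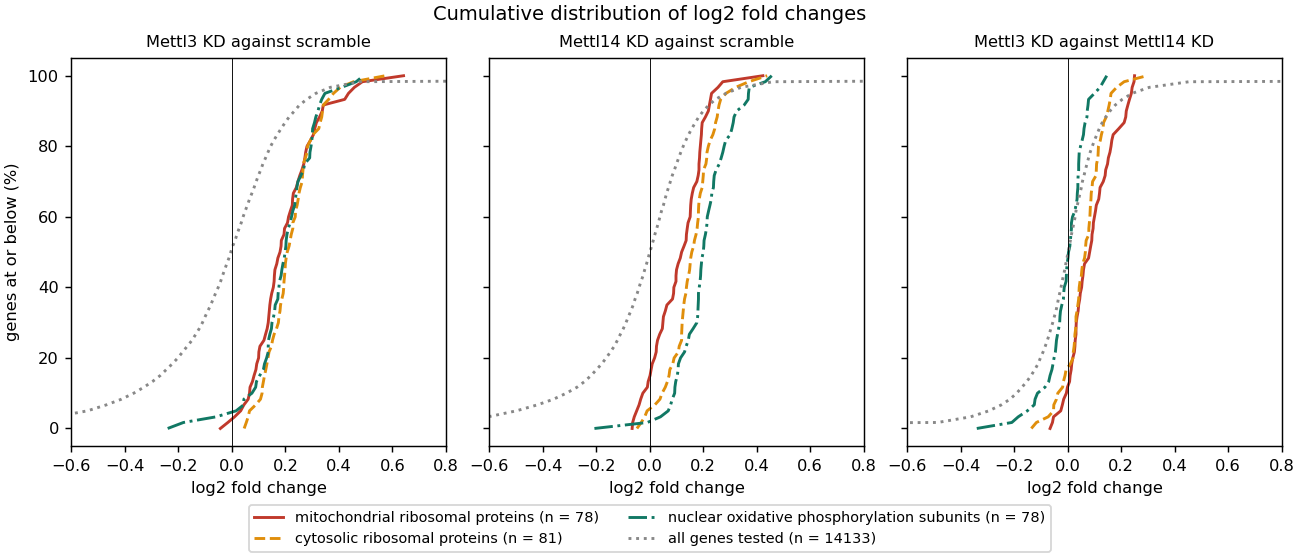
Percentage of genes at or below each log2 fold change for mitochondrial ribosomal proteins (78), cytosolic ribosomal proteins (81), nuclear oxidative phosphorylation subunits (78) and all 14133 genes tested, in 3 comparisons. Against scramble, the medians of all 3 lists lie right of the median of all genes, whose upper tail reaches further; between the knockdowns, the medians are 0.08 for mitochondrial and 0.07 for cytosolic ribosomal proteins and 0.00 for oxidative phosphorylation subunits.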

How the data were processed

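A single table of estimated counts by gene, 1 column a library, was deposited by the authors; per the submitters' processing notes kallisto was used (version not given). The sources used here do not give the build, the annotation or the step from transcripts to genes. Of the deposited expected counts, 11.6% were not whole, and all were rounded. Symbols, transcript lengths and neighbours came from GENCODE M21 and RefSeq; 48651 of 53947 rows matched a symbol, and the others held 0.518% of counts. Genes with a minimum count of 10 (filterByExpr) were kept: 14133, holding 99.9% of counts. The 3 group means were fitted on all 11 libraries with TMM (trimmed mean of M-values) scaling in edgeR 4.0.16 (R 4.3.3), with its quasi-likelihood F-test and Benjamini-Hochberg adjustment over all genes tested at 0.05; 8 residual degrees of freedom, common biological coefficient of variation 4.38%. SEs are approximate, from the size of the log2 fold change over the root of F. Levels are TMM-scaled CPM, apart from the levels and sums of cell type markers, which are unscaled. The fit was tested on simulated counts. Replicate pairs differed by 2.1 to 3.87 in chi-square per degree of freedom, and the pairs with scramble replicate 2 by 13.3 and 14.9.

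Named members were those with the largest and most certain changes, the highest and lowest levels per kb, the Mrps18 genes, members with singular roles and those whose call changed most without scramble replicate 2. Some genes outside these rules were named after their values were seen. The members and lists were chosen with earlier results of these data known. Alternatives covered scaling, filter, DESeq2 1.42.0, limma 3.58.1 (voom), groups in the fit, replicate block, transcript length and each library left out.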

Additional observations from a re-analysis of the deposited data

Results flagged for a closer look

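In 70 groups of 4 libraries checked for a value far from the other 3, 5 were found, and chance gives about 1 in 20. Mrpl2 was at 48.2 CPM in Mettl3 KD replicate 2, against 55.1 to 56.2 CPM in the other Mettl3 KD libraries. Mrpl44 was at 33.6 CPM in Mettl14 KD replicate 2, against 37.4 to 37.9 CPM. Mrps33 was at 94.5 CPM in Mettl14 KD replicate 2, against 85.7 to 87.0 CPM in the other Mettl14 KD libraries. Mrps18b was at 62.1 CPM in Mettl14 KD replicate 1, against 60.0 to 60.2 CPM. The summed level of all 78 genes was 3849 CPM in Mettl14 KD replicate 3, against 3917 to 3922 CPM in the other Mettl14 KD libraries. The causes were not tested.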

How the results depend on the processing

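With each library left out in turn, the number of mitochondrial ribosomal protein genes higher ran from 45 to 51 in Mettl3 KD against scramble, from 20 to 29 in Mettl14 KD against scramble and from 11 to 28 in Mettl3 KD against Mettl14 KD. The number lower ran from 0 to 1, 0 to 1 and 0 to 0, and the median log2 fold change from 0.16 to 0.20, 0.11 to 0.13 and 0.07 to 0.09. Under the other alternatives the numbers higher ran from 38 to 54, 18 to 35 and 13 to 28, and the medians from 0.14 to 0.19, 0.09 to 0.12 and 0.07 to 0.09. For Mettl3 KD against Mettl14 KD, 28 were higher when only these 8 libraries were fitted, 27 with limma-voom quality weights and 26, with 1 lower, with the length correction and scramble replicate 2 left out, an alternative added after seeing the data. In that last fit 1 was also lower in each knockdown against scramble. Replicate numbers did not pair the libraries: correlations of same-numbered libraries ran from -0.118 to 0.0674. With the replicate number as a block, 47, 24 and 14 were higher and 0 lower; with the block and the length correction, 38, 18 and 13 were higher. Of the values of the 34 named members under these settings, 2041 kept direction and side of the threshold, 163 lost the call, 40 gained one and 0 reversed. The cause of these shifts was not tested. Depth limits Mrpl23 most, at 99 to 230 counts a library.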
